A study of Mus musculus with 16 samples.

Results

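The 10 genes described here, Lor, Flg, Flg2, Hrnr, Rptn, Ivl, Cnfn, Casp14, Asprv1 and Cdsn, belong to the granular and cornified layers of the epidermis. They were chosen by name, and every probe whose accession RefSeq gives to 1 of them was followed. Of the 20832 genes named on the array, 9 are measured here, by 10 of its 39429 probes, with 2 probes for Ivl and 1 for each of the others. No probe matched Flg, which is therefore only named.

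The arrays measured RNA of skin wounds, cut out with the intact skin around them, from female mice. There were 16 one-colour arrays in 8 groups of 2, that is 4 kinds of wound on each of the labelled days 7 and 14 after wounding. The WT group was C57BL/6J at 10 to 12 weeks of age. The db/db group was C57BLKS/J Iar-+Lepr db/+Lepr db at 10 weeks, a strain without a working leptin receptor that becomes obese and diabetic, and its wounds received no oil. In the db/db + estrogen group, mice of that strain and age had estradiol benzoate in sesame oil put on the wound each day at 0.75 μg per g, and in the db/db + vehicle group the wound received the sesame oil alone. All wounds were punched through the full thickness of the back skin, 4 mm wide and 2 per mouse, and kept under a moist dressing. WT and db/db mice differed in background strain as well as at the leptin receptor, and no untreated wild type of the db/db background was included. The labels do not say which arrays came from the same mouse, so the p-values measure the spread between these samples.

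The epidermis renews itself from basal keratinocytes, which divide, move upward and differentiate. In the granular layer they make the proteins of the cornified envelope, a cross-linked shell that replaces the cell membrane, and the S100 fused-type proteins, which bundle keratin filaments. Proteases then process these proteins, corneodesmosomes hold the dead cells together, and the finished layer limits the loss of water. In a healing wound this layer is missing until new epithelium has covered the gap and matured, so that the level of these genes in a whole piece of tissue depends on how much mature epidermis the piece holds. Fewer cells of a type and less RNA per cell cannot be told apart in such samples.

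Levels are given as the log2 of the probe's processed intensity relative to the 75th percentile of its array, so that a difference of 1 is a doubling, and they are compared between groups for 1 gene at a time. A difference was called where limma gave a two-sided unadjusted p under 0.05 and more than 2-fold, which are the thresholds the study used, and the adjusted p given beside it is Benjamini-Hochberg adjusted over all probes tested in that comparison. All 10 probes were well above background on all 16 arrays, none was saturated, and 9 of 9 genes measured passed the filter on dim probes. The 75th percentile of the arrays ranged from 1091 to 2548 intensity units, and 71.1% to 79.6% of their probes were well above background. The lowest value, 1091, was that of WT replicate 2 of labelled day 14, against 2383 for replicate 1. WT replicate 1 of labelled day 7 had 1204. Fold changes the study gives for one day were those of the arrays labelled with the other day, so the days are named here as labelled, and which of them is right cannot be told from the arrays. On labelled day 7, slide 1 held replicate 1 of every group and slide 2 held replicate 2. On labelled day 14, slide 3 held both db/db arrays and slide 4 both WT arrays, each with 1 array of either treated group, and the labelled days were scanned on different days. Arrays stood apart from their partner in 3 groups. The mean level over the 9 genes was 1.64 and 2.90 in db/db of labelled day 7, 3.43 and 1.79 in db/db + estrogen of labelled day 14, and 3.58 and 1.85 in WT of labelled day 14.

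Of the 10 genes, 6 (Lor, Flg, Flg2, Hrnr, Rptn and Ivl) lie on mouse chromosome 3, in the epidermal differentiation complex, a cluster of genes used in late keratinocyte differentiation. Flg2, Flg, Hrnr and Rptn stand next to each other there, with no other protein-coding gene of the RefSeq table between them. Cnfn lies on chromosome 7, Casp14 on 10, Asprv1 on 6 and Cdsn on 17. The 120 bases before the RefSeq start of transcription (GRCm38.p6, 5′ to 3′) are printed for the neighbours Flg2, Hrnr and Rptn. Between groups, Rptn did not follow the course of Flg2 and Hrnr. The same stretch is printed for Cnfn, whose levels ran most closely with those of Rptn, and for the envelope genes Ivl and Lor. Capitals mark TATAAA on the strand of the gene and TGANTCA on either strand, letters of the TATA box and of the binding site of AP-1, a transcription factor of keratinocyte differentiation.
Rptn, chr3:93393579-93393698, plus strand: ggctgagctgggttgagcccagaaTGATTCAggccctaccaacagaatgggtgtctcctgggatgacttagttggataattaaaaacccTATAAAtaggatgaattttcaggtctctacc
Hrnr, chr3:93319629-93319748, plus strand: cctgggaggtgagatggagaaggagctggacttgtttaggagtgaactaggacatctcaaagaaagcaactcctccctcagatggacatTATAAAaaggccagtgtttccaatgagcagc
Flg2, chr3:93197153-93197272, plus strand: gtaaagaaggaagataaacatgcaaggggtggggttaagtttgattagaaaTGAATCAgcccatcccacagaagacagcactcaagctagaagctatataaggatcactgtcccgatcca
Cnfn, chr7:25369725-25369844, minus strand: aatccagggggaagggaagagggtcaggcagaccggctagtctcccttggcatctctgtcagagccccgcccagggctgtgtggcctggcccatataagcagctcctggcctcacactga
Ivl, chr3:92573736-92573855, minus strand: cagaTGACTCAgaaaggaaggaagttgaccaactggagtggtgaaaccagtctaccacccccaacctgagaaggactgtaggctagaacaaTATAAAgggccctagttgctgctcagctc
Lor, chr3:92083143-92083262, minus strand: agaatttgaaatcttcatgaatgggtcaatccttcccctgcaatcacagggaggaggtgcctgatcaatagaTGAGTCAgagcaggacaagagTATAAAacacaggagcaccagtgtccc

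In the window from 250 bases before to 50 bases after the start, TATAAA stood in 5 of the 11 promoters listed for the 10 genes and in 8.32% of 32851 mouse promoters. It began 31 bases before the start in both Rptn and Hrnr. TGANTCA stood in 5 of 11 and in 7.81% of all promoters, in Rptn, Flg2, Flg, Ivl and Lor, and no match was found in the windows of Hrnr and Cnfn. The full palindromic estrogen response element, searched on both strands, was found in none of the 11 and in 0.07% of all promoters. A match of letters is a description and no measurement of binding, and no match says only that these letters are not in the window.

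**Figure D1:**
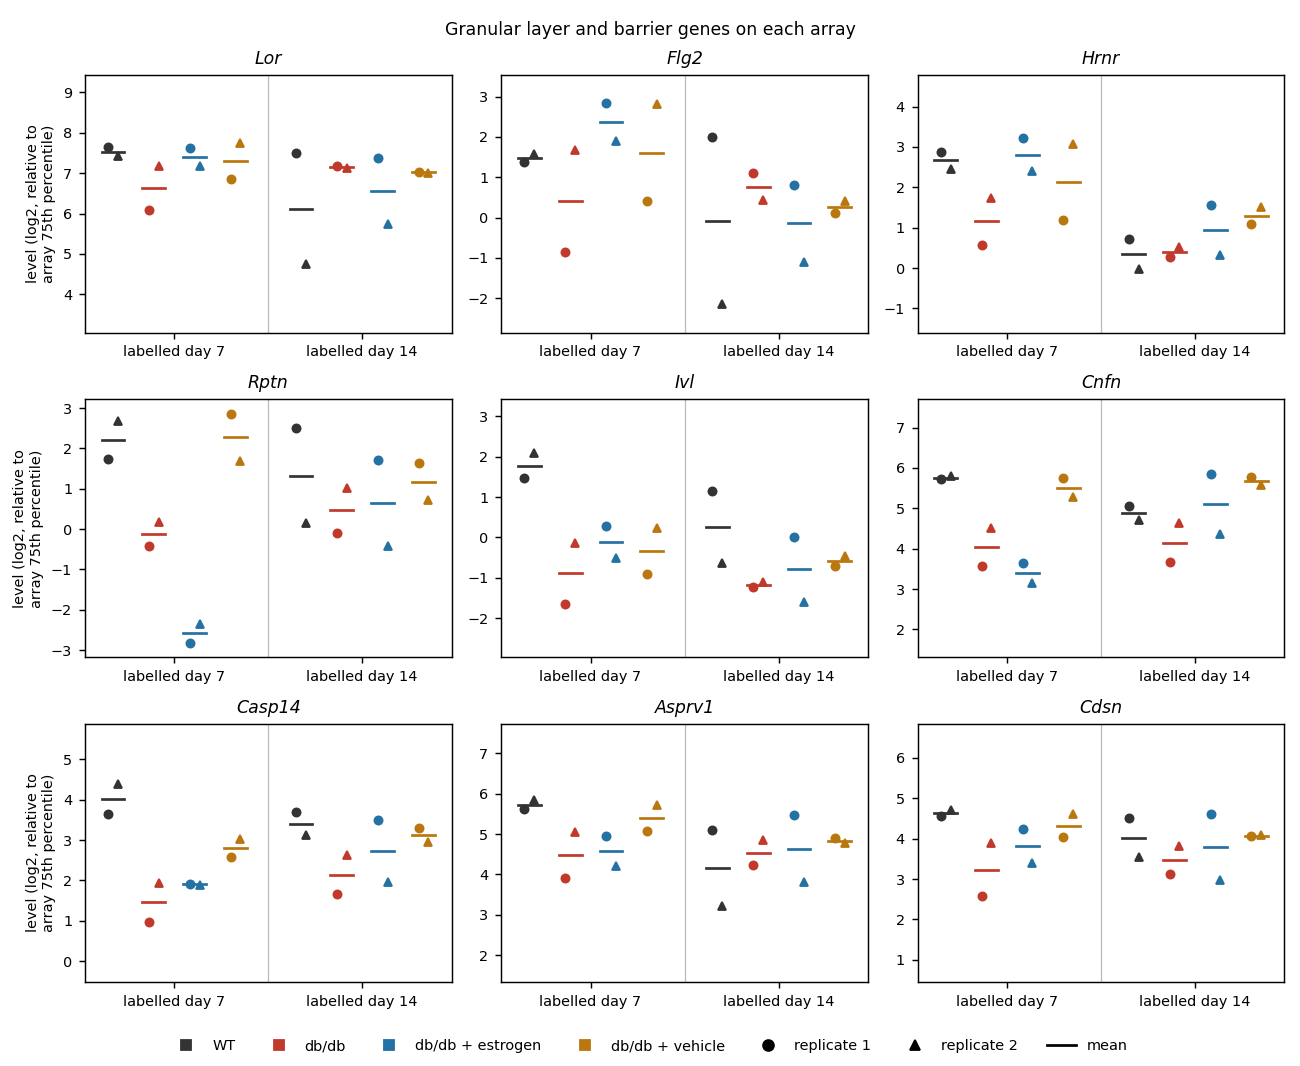
Level of each of the 9 measured genes on each of the 16 arrays (y axis, log2 relative to the array's 75th percentile, each panel spanning the same number of log2 units; x axis, 4 groups on each labelled day; circle, replicate 1; triangle, replicate 2; line, mean). On labelled day 7 Rptn was at −2.81 and −2.36 in db/db + estrogen wounds and at 2.85 and 1.70 in db/db + vehicle wounds, and the WT arrays labelled day 14 lay far apart for Lor and Flg2.

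In untreated diabetic wounds on labelled day 7, 6 of the 9 genes were lower than in WT wounds and none was higher, where 8.42% of 29745 probes were called lower and 14.1% in either direction. All 9 differences were negative, with a median log2 fold change of −1.51 against −0.05 over all probes tested. In 8 of 9 genes the db/db arrays lay below both WT arrays, as 31.8% of all probes did. Casp14, Ivl and Cnfn also passed after adjustment over all probes, as 4.88% of probes did in this direction. Of these, only Casp14 did so with the slide as a fixed block (limma adjusted p = 0.0101, against 0.0539 for Ivl and 0.0571 for Cnfn) or as a random block, and none did when only the 4 arrays compared were fitted.

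Among the envelope precursors, involucrin (Ivl), an early scaffold of the envelope, was at 1.46 and 2.09 on the WT arrays and at −1.64 and −0.13 on the db/db arrays. Both db/db arrays lay below both WT arrays, and the fall was 6.33-fold (log2 −2.66, SE 0.73, limma adjusted p = 0.0404). The second Ivl probe gave log2 −2.62 (limma adjusted p = 0.0785), and the 2 probes followed each other across the 16 arrays with r = 0.988. Cornifelin (Cnfn), another envelope component, was at 5.73 and 5.79 in WT and at 3.57 and 4.52 in db/db wounds. It fell 3.28-fold (log2 −1.72, SE 0.50, limma adjusted p = 0.0496), and the groups did not overlap. Repetin (Rptn), an envelope precursor of the S100 fused-type family, was at 1.74 and 2.69 in WT and at −0.42 and 0.17 in db/db wounds. It was called 5.05-fold lower (log2 −2.34, SE 0.88, limma adjusted p = 0.108), again without overlap. Loricrin (Lor), the most abundant protein of the envelope, was at 7.64 and 7.43 in WT and at 6.08 and 7.19 in db/db wounds, log2 −0.90 (SE 0.80, limma adjusted p = 0.494). The db/db arrays lay below WT, but replicate 2 by only a little, and no call was made.

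Hornerin (Hrnr), an S100 fused-type protein related to filaggrin, was at 2.88 and 2.46 in WT and at 0.58 and 1.74 in db/db wounds. It was called 2.85-fold lower (log2 −1.51, SE 0.65, limma adjusted p = 0.153), with both db/db arrays below WT. Filaggrin-2 (Flg2), of the same family, was at 1.37 and 1.58 in WT and at −0.85 and 1.68 in db/db wounds. The db/db arrays lay on either side of WT, and no call was made (log2 −1.06, SE 1.32, limma adjusted p = 0.636).

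The smallest adjusted p of the 9 belonged to caspase-14 (Casp14), the protease that takes part in the final breakdown of filaggrin, at 3.64 and 4.39 in WT and at 0.97 and 1.94 in db/db wounds. It fell 5.88-fold (log2 −2.56, SE 0.53, limma adjusted p = 0.0147), and its slides gave −2.67 and −2.45. Asprv1, an aspartic protease that processes profilaggrin, was at 5.61 and 5.85 in WT and at 3.91 and 5.05 in db/db wounds. Its arrays did not overlap, but it was not called (log2 −1.24, SE 0.69, limma adjusted p = 0.259). Corneodesmosin (Cdsn), the adhesive protein of corneodesmosomes, was at 4.57 and 4.71 in WT and at 2.58 and 3.89 in db/db wounds, and was called 2.65-fold lower (log2 −1.40, SE 0.60, limma adjusted p = 0.150).

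These calls leaned on 1 array. Without db/db replicate 1, the lower of the pair for all 9 genes, 2 genes were called, Casp14 and Ivl. Without WT replicate 2, 3 were called, these and Cnfn. Within slide 1 and slide 2, respectively, the differences were −3.10 and −2.23 for Ivl, −2.17 and −1.26 for Cnfn, −2.16 and −2.52 for Rptn, −2.30 and −0.72 for Hrnr, and −1.99 and −0.81 for Cdsn. The sign was therefore the same on both slides for these 5 genes, and the size varied most for Hrnr, whose call was lost with the slide as a fixed block (limma adjusted p = 0.192).

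Under estrogen the 9 genes did not follow 1 course on labelled day 7. Against untreated db/db wounds, Hrnr was called higher and Rptn lower, against a background of 5.22% (higher) and 4.71% (lower) of 30187 probes. Neither passed after adjustment, as 4.84% of probes did in either direction. The median over the 9 genes was 0.59, with 7 differences above and 2 below 0, and the median over all probes was 0.04. For Lor, Ivl, Casp14, Asprv1 and Cdsn the difference was positive on slide 1 only. Rptn fell from −0.42 and 0.17 to −2.81 and −2.36, which is 5.51-fold (log2 −2.46, SE 0.88, limma adjusted p = 0.146), and both estrogen arrays were below both untreated ones. Hrnr rose from 0.58 and 1.74 to 3.22 and 2.40, which is 3.14-fold (log2 1.65, SE 0.65, limma adjusted p = 0.188), and again the arrays did not overlap. Flg2 was at 2.83 and 1.91 under estrogen, above both untreated values of −0.85 and 1.68, but was not called (log2 1.96, SE 1.32, limma adjusted p = 0.475). The call of Hrnr was lost without db/db replicate 1 or db/db + estrogen replicate 1, and that of Rptn without db/db + estrogen replicate 1 or db/db replicate 2, with log2 values between −2.76 and −2.17 for Rptn and between 1.07 and 2.23 for Hrnr. Within the slides, Rptn was at −2.39 and −2.53 against db/db and Hrnr at 2.64 and 0.66.

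The other 6 genes were not called between estrogen-treated and untreated db/db wounds. Cnfn was at 3.64 and 3.16 under estrogen (log2 −0.64, SE 0.50), the one other negative difference, and its slides gave 0.07 and −1.36. Casp14 was at 1.92 and 1.88, inside the range of the untreated arrays (log2 0.45, SE 0.53). Lor stood at 7.63 and 7.17, Ivl at 0.28 and −0.50, Asprv1 at 4.95 and 4.20 and Cdsn at 4.25 and 3.40. Their log2 fold changes ran from 0.09 for Asprv1 to 0.77 for Ivl. Within slide 1 and slide 2, respectively, Lor gave 1.56 and −0.02, Ivl 1.92 and −0.37 and Casp14 0.96 and −0.06. Asprv1 gave 1.04 and −0.86 and Cdsn 1.67 and −0.49. For all of these genes the slides disagreed in sign.

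The oil alone was followed by another pattern. In db/db + vehicle wounds of labelled day 7, 3 of 9 genes were called higher than in untreated db/db wounds, where 2.52% of 29786 probes were. All 9 differences were positive, with a median of 1.09 against 0.05 over all probes, and none of the 9 passed after adjustment, as 0.0369% of probes did in this direction. In 5 of 9 genes both vehicle arrays lay above both untreated arrays, as for 22.3% of all probes. Rptn was at 2.85 and 1.70 with vehicle and was called 5.29-fold higher (log2 2.40, SE 0.88, limma adjusted p = 0.282). Cnfn, at 5.74 and 5.27, was called 2.75-fold higher (log2 1.46, SE 0.50, limma adjusted p = 0.252), and Casp14, at 2.57 and 3.02, 2.53-fold higher (log2 1.34, SE 0.53, limma adjusted p = 0.321). The arrays of these 3 genes did not overlap, and their slides gave 3.27 and 1.53 for Rptn, 2.17 and 0.75 for Cnfn and 1.60 and 1.07 for Casp14. No call of the 3 remained without db/db replicate 1.

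**Figure D2:**
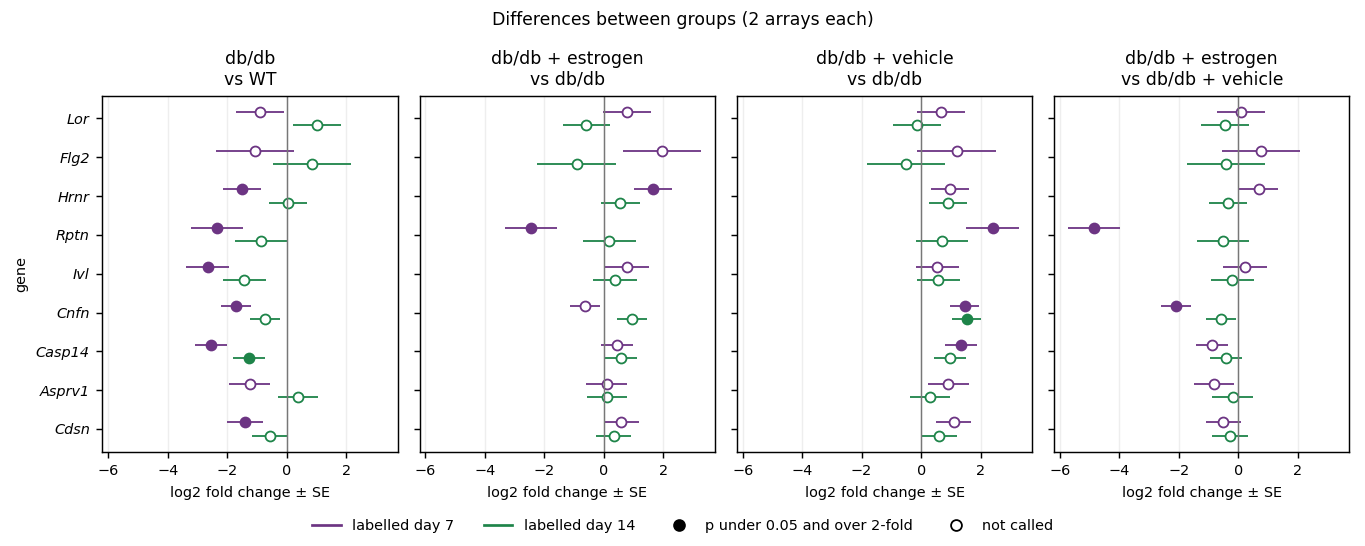
Log2 fold change (x axis, bars ± SE from limma) of the 9 genes (y axis) in 4 comparisons of 2 against 2 arrays, on labelled day 7 (purple) and labelled day 14 (green); filled points had p under 0.05 and more than 2-fold. In the comparison of estrogen with vehicle, Rptn (log2 −4.87) and Cnfn (log2 −2.10) stand away from the other genes on labelled day 7.

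Estrogen and vehicle wounds of labelled day 7, both dressed with the same oil, differed most in Rptn. It was at −2.81 and −2.36 with estrogen and at 2.85 and 1.70 with vehicle, a 29.2-fold difference (log2 −4.87, SE 0.88, limma adjusted p = 0.0217). Cnfn was at 3.64 and 3.16 with estrogen and at 5.74 and 5.27 with vehicle, 4.30-fold lower (log2 −2.10, SE 0.50, limma adjusted p = 0.0530). These were the 2 genes called, both lower, where 4.32% of 30149 probes were called lower and 1.26% also passed after adjustment. Both calls were kept without each array in turn, with log2 values from −5.44 to −4.29 for Rptn and from −2.34 to −1.86 for Cnfn, and the slides gave −5.67 and −4.07 for Rptn and −2.10 and −2.11 for Cnfn.

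Of the other 7 genes, 4 were higher with estrogen in the mean and 3 lower, and none was called. Flg2 gave log2 0.76 (SE 1.32), Hrnr 0.68 (SE 0.65), Ivl 0.23 (SE 0.73) and Lor 0.10 (SE 0.80), while Casp14 gave −0.89 (SE 0.53), Asprv1 −0.82 (SE 0.69) and Cdsn −0.50 (SE 0.60). The vehicle arrays lay far apart for Flg2, at 0.40 and 2.82, and for Hrnr, at 1.19 and 3.08. The slides disagreed in sign for both, with 2.43 and −0.91 for Flg2 and 2.03 and −0.67 for Hrnr. They also disagreed for Lor (0.78 and −0.58), Ivl (1.18 and −0.73) and Cdsn (0.22 and −1.22). For Casp14 and Asprv1 both slides were negative. The neighbouring genes Hrnr and Rptn were called in opposite directions against untreated db/db wounds, and against vehicle only Rptn was called.

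Set against WT wounds of labelled day 7, 4 of 9 genes were called lower under estrogen, where 4.49% of 29773 probes were. Rptn was 27.9-fold lower (log2 −4.80, SE 0.88, limma adjusted p = 0.0148), Cnfn 5.13-fold (log2 −2.36, SE 0.50, limma adjusted p = 0.0275), Casp14 4.32-fold (log2 −2.11, SE 0.53, limma adjusted p = 0.0564) and Ivl 3.70-fold (log2 −1.89, SE 0.73, limma adjusted p = 0.204). Hrnr, with log2 0.14 (SE 0.65), and Lor, with log2 −0.13 (SE 0.80), were not called, and their intervals span differences of more than 2-fold either way. With vehicle, 2 of 9 were called lower than in WT, Ivl (log2 −2.11, SE 0.73, limma adjusted p = 0.105) and Casp14 (log2 −1.22, SE 0.53, limma adjusted p = 0.188), where 6.38% of 29684 probes were. Rptn with vehicle was close to WT in the mean (log2 0.06, SE 0.88). The comparisons with db/db, and those with WT, share control arrays and are set side by side only.

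Few of these genes differed on labelled day 14. Casp14 was the 1 gene called lower in db/db than in WT wounds, at 1.67 and 2.62 against 3.69 and 3.12 (2.40-fold, log2 −1.26, SE 0.53, limma adjusted p = 0.125), where 15.6% of 30278 probes were called lower. Both db/db arrays were on one slide and both WT arrays on another, so that slide and group cannot be told apart without the treated arrays, and the slide moved the value. As a random block it gave log2 −1.07 for Casp14, which was no longer called, and as a fixed block log2 −2.20, with 2 genes called. The call was also lost without db/db replicate 1 or WT replicate 1, and without WT replicate 2, the array that stood apart, 2 genes were called. Ivl was at −1.24 and −1.10 in db/db and at 1.15 and −0.64 in WT wounds (log2 −1.42, SE 0.73, limma adjusted p = 0.198). With vehicle, Cnfn was at 5.78 and 5.58, above the untreated values of 3.66 and 4.64, and was called 2.89-fold higher (log2 1.53, SE 0.50, limma adjusted p = 0.178), where 5.31% of 29043 probes were called higher. Within slide 3 that difference was 1.63, and the call was lost without db/db replicate 1 or db/db + vehicle replicate 1.

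No member was called on labelled day 14 in estrogen against db/db (3.91% of 28245 probes called), estrogen against vehicle (0.984% of 28975), estrogen against WT (13.3% of 30272) or vehicle against WT (13.4% of 30520), and none had an unadjusted p under 0.05 in limma there. Rptn was at 1.72 and −0.41 with estrogen and at 1.65 and 0.71 with vehicle (log2 −0.52, SE 0.88), and Cnfn at 5.85 and 4.36 against 5.78 and 5.58 (log2 −0.57, SE 0.50). The replicates lay far apart here. All 9 genes differed by more than 2-fold between the estrogen arrays and 5 of 9 between the WT arrays, where 11.37% and 11.5% of all probes did, against 1 gene for db/db and none for vehicle. Without estrogen replicate 2, 2 genes were called in estrogen against db/db and none against vehicle or WT. On WT replicate 2, Lor was at 4.74 against 7.50, Flg2 at −2.14 against 1.99 and Asprv1 at 3.21 against 5.11.

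The difference between the labelled days was tested as a contrast of the same model. The estrogen against vehicle difference in Rptn was larger on labelled day 7 than on labelled day 14, by log2 −4.34 (SE 1.24, limma adjusted p = 0.255), where 7.16% of 30629 probes were called. The estrogen against db/db difference in Cnfn was −0.64 on labelled day 7 and 0.96 on labelled day 14, a contrast of log2 −1.60 (SE 0.71, limma adjusted p = 0.492), where 6.27% of 30429 probes were called. Neither passed after adjustment. For db/db against WT, all 9 contrasts were negative, from −1.93 for Lor to −0.84 for Cdsn, and none was called (9.39% of 30890 probes called). For vehicle against db/db none was called (2.81% of 30511).

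Ordered by the mean of each group, Rptn ran from db/db + vehicle on labelled day 7 (2.28), WT on day 7 (2.21), WT on day 14 (1.32), vehicle on day 14 (1.18), estrogen on day 14 (0.65), db/db on day 14 (0.47) and db/db on day 7 (−0.13) to estrogen on day 7 (−2.59). The arrays of neighbours in this order overlapped except for the last 2 groups. Hrnr was highest in estrogen on labelled day 7 (2.81), then WT (2.67) and vehicle (2.13) of that day, and lowest in WT on day 14 (0.35). Flg2 was also highest in estrogen on day 7 (2.37) and lowest in estrogen on day 14 (−0.14). Cnfn was highest in WT on day 7 (5.76), Casp14 in the same group (4.01), and Ivl too (1.78), while Ivl was lowest in db/db on day 14 (−1.17), Casp14 in db/db on day 7 (1.46) and Cnfn in estrogen on day 7 (3.40). For every measured gene, at most 1 of the 7 pairs of neighbouring groups had arrays that did not overlap.

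**Figure D3:**
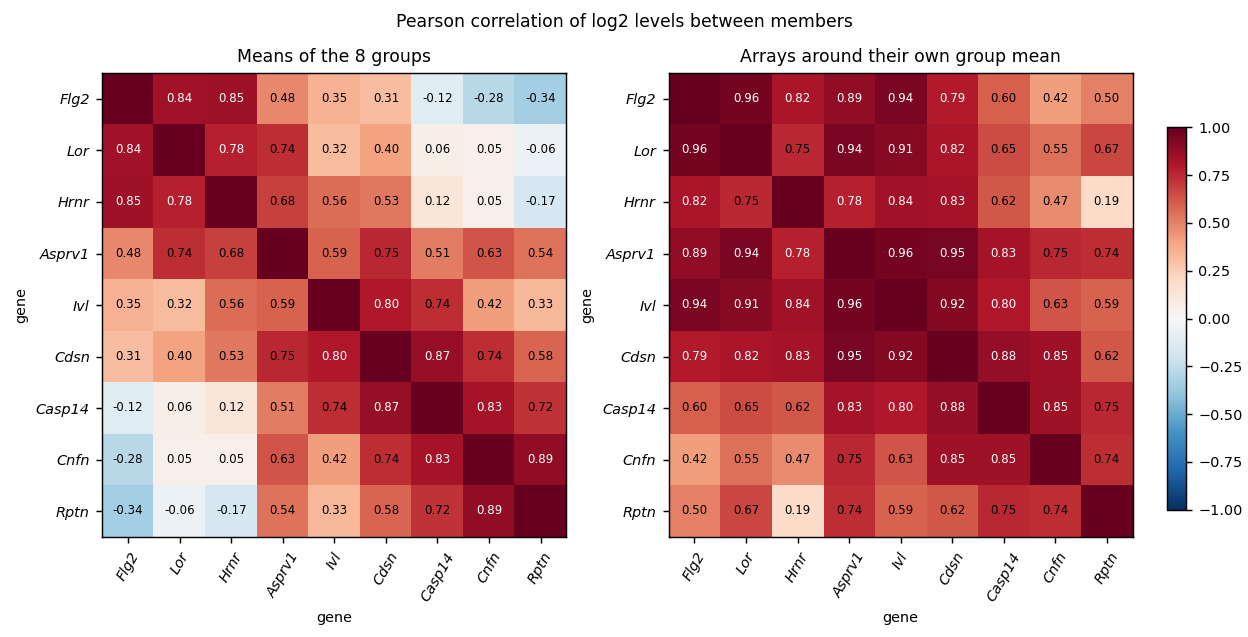
Pearson r between log2 levels of the 9 genes (both axes), over the means of the 8 groups (left) and over arrays after subtraction of their own group mean (right); red is positive and blue negative. Rptn and Flg2 ran against each other over group means (r = −0.34) and together over the arrays of a group (r = 0.50).

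Between groups and between replicates the genes were ordered differently. Over the 8 group means, 5 of the 36 pairs of genes had a negative r, and r ranged from −0.34 for Flg2 and Rptn to 0.89 for Rptn and Cnfn. Lor, Flg2 and Hrnr ran together (r = 0.78 to 0.85), as did Rptn, Cnfn and Casp14 (r = 0.72 to 0.89). These 2 sets, picked from the same values, were nearly unrelated to each other (r = −0.34 to 0.12). Asprv1, Ivl and Cdsn had a positive r with every gene of both sets (0.31 to 0.87). Around the group means, all 36 pairs were positive, and 32 of them had r over 0.5, up to 0.96 for Lor and Flg2 and for Ivl and Asprv1. These values describe 16 arrays in 8 groups, which share their group means and the scaling of each array.

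Over the 16 arrays, the named genes outside the list whose levels were most like the mean of the 9 were Klk5 (r = 0.97), a kallikrein protease that acts on corneodesmosomes, Rnf225 (r = 0.97), Atp10b (r = 0.96), Igdcc3 (r = 0.96), Olfr700 (r = 0.96) and Smpd3 (r = 0.95), a sphingomyelinase, out of 16863 genes. Taken one by one, Flg2 was most like the late envelope gene Lce1c (r = 0.967), then 2310050C09Rik (r = 0.96) and the late envelope gene Lce1a2 (r = 0.957). Lor was most like Lce1a2 (r = 0.94), Hal and Olfr18 (both r = 0.93). Hrnr was most like Skint5 (r = 0.94), Ivl like Dnase1l3 (r = 0.95) and Casp14 like Nccrp1 (r = 0.95). Asprv1 was most like Calm4 (r = 0.98), Cdsn like the protease Prss8 (r = 0.965), and Cnfn like Higd1a and Klk9 (both r = 0.97). Rptn was most like Rbp2 (r = 0.94), Pglyrp4 (r = 0.93) and Elf5 (r = 0.92). These are descriptions of likeness over arrays that share their groups.

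Some other genes of the barrier were also called lower in db/db than in WT wounds of labelled day 7. Over all 29745 probes tested, 8.42% were called lower. Of spinous and suprabasal genes, 3 of 10 were called lower (median log2 −0.96). The list of cross-linking enzymes and plakins also holds Kprp, Crnn, Tchhl1 and Tchh. In it, 2 of 9 were called lower, Tgm5 and Crnn (−1.07). The counts were 4 of 18 for lipid barrier genes (−1.01) and 3 of 13 for profilaggrin processing and protease control (−0.99). They were 5 of 12 for desmosome genes (−1.11) and 6 of 15 for differentiation transcription factors (−0.74). None of the genes in these lists was called higher. Of 13 Lce1 genes, which code for late envelope proteins, none was called in any comparison. Lce3 genes were not in this list and are not described here. In db/db against WT wounds all 13 were lower on labelled day 7 (median −0.69) and higher on labelled day 14 (median 0.52). The arrays overlapped on both days. The mean level of the list ranged from 2.04 to 3.75 in db/db and 3.48 to 3.59 in WT wounds of labelled day 7. On labelled day 14 it ranged from 2.79 to 3.09 in db/db and 1.05 to 3.82 in WT wounds.

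Among the genes named by rule, the cross-linking enzyme Tgm5 fell by 1.92 on the log2 scale (limma adjusted p = 0.0143), the lipoxygenase Alox12b, which is needed for the lipid envelope, by 2.39 (limma adjusted p = 0.0188), and the desmosomal cadherin Dsc3 by 2.43 (limma adjusted p = 0.00163). Tfap2a (log2 −1.89, limma adjusted p = 0.0107), Gata3 (log2 −2.00, limma adjusted p = 0.0407) and Grhl1 (log2 −1.78, limma adjusted p = 0.0602), transcription factors of epidermal differentiation, were called lower as well. The other named genes were Calml3 (−1.98), Lgals7 (−1.37), Sbsn (−1.29), Crnn (−1.61), Aloxe3 (−1.50), Elovl4 (−1.48), Klk5 (−1.73), Prss8 (−1.57), St14 (−1.14), Dsg1c (−2.00) and Dsg1b (−1.41), all called lower. Among these others, only Lgals7 and Dsg1c passed after adjustment (limma adjusted p = 0.0450 and 0.0281). Of the named genes, Dsc3 (−2.10), Dsg3 (−1.65), Nipal4 (−1.94), Dsg1c (−1.50), Aloxe3 (−1.42), Grhl1 (−1.29), Tfap2a (−1.27), Krt2 (−1.19) and Lgals7 (−1.10) were called lower in db/db wounds on labelled day 14. After adjustment, Dsc3, Dsg3, Nipal4 and Tfap2a passed on that day and the other genes named for it did not. Over all 30278 probes tested on that day, 15.6% were called lower.

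Under estrogen on labelled day 7, some genes of these lists were called higher and others lower than in untreated db/db wounds, with calls in both directions within the lipid barrier list (1 higher, 1 lower) and the transcription factor list (2 higher, 1 lower). Over all 30187 probes tested, 5.22% were called higher and 4.71% lower. Dsc3 (log2 1.82, limma adjusted p = 0.00924), Dsg1c (1.80), Gata3 (1.83), Aloxe3 (1.18) and Tfap2a (1.06) were called higher. Except for Dsc3, these did not pass after adjustment (limma adjusted p from 0.0656 to 0.194). Furin, a protease that cleaves profilaggrin, was called lower (log2 −1.04, limma adjusted p = 0.00509). So were Tchhl1 (−2.68), an S100 fused-type gene like Rptn, Degs2 (−2.48), a desaturase of ceramide synthesis, and Prdm1 (−1.60), a transcription factor of late differentiation. Except for Furin, these did not pass after adjustment (limma adjusted p from 0.0731 to 0.137). With vehicle, 4 of 12 desmosome, 5 of 18 lipid barrier and 3 of 15 transcription factor genes were called higher than in db/db wounds, and none lower. Over all probes, 2.52% were called higher. Between estrogen and vehicle none in these lists was called higher, and 2, 3 and 3 were called lower under estrogen (4.32% of all probes). Of the 13 Lce1 genes, all 13 differences between estrogen and db/db wounds were positive (median 0.87) and none was called. The arrays overlapped, with mean levels of the list from 3.45 to 4.15 under estrogen and 2.04 to 3.75 in db/db wounds. On labelled day 14, Dsg1c (1.40), Dsg3 (1.32) and Tgm5 (1.16) were called higher under estrogen than in db/db wounds. Of 28245 probes, 3.91% were called in either direction. None of these genes passed after adjustment (limma adjusted p = 0.421, 0.324 and 0.403, respectively). With vehicle on that day, 5 of 12 desmosome genes and 3 of 9 of the cross-linking and plakin list were called higher, and none lower. Over all probes, 5.31% were called higher. Between estrogen and vehicle none of either list was called (0.984% of all probes).

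**Figure D4:**
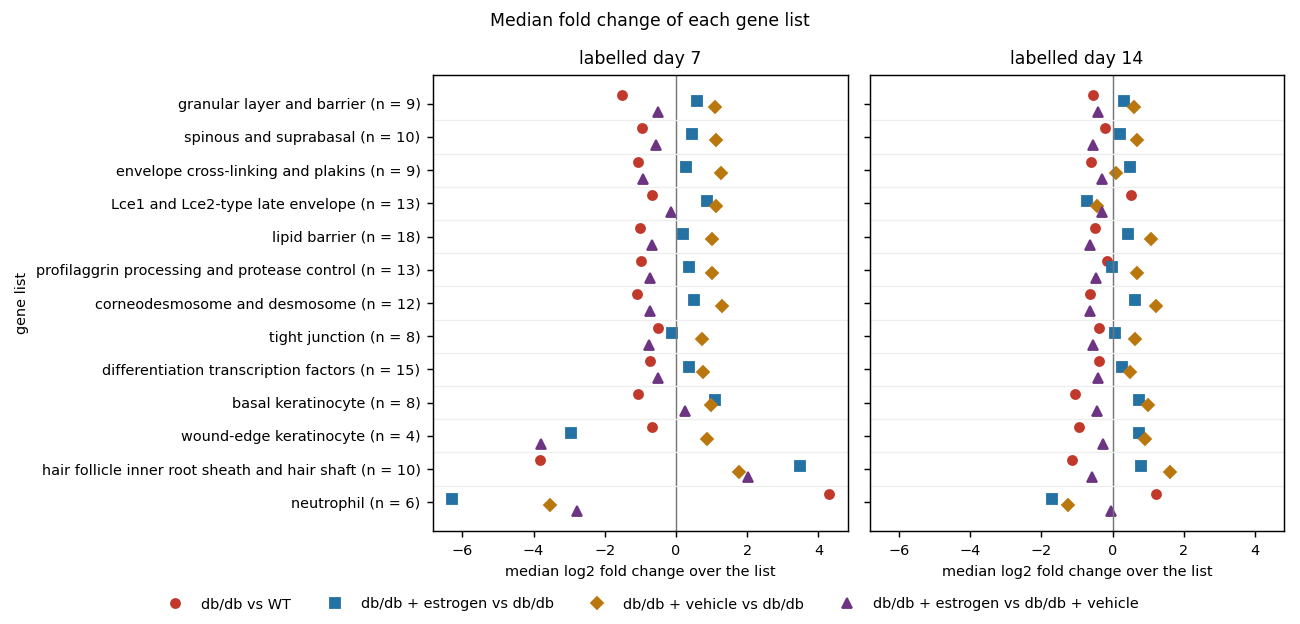
Median log2 fold change (x axis) over each gene list (y axis, with its number of genes; points use the genes tested) in 4 comparisons, on labelled day 7 (left) and labelled day 14 (right). The wound-edge keratin list lay at −2.95 for estrogen against db/db and at −3.79 for estrogen against vehicle on labelled day 7, apart from the other keratinocyte lists.

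Markers of other keratinocytes were measured beside these genes. Over all probes of labelled day 7, 4.32% were called lower under estrogen than with vehicle, and 1.26% also passed after adjustment. Keratins of the wound edge, Krt6a, Krt6b, Krt16 and Krt17, which keratinocytes make while they close a wound, were called lower under estrogen than with vehicle in 4 of 4 cases on labelled day 7 (median log2 −3.79), and all 4 passed after adjustment. Krt6b was at 0.49 and 2.00 with estrogen, at 7.78 and 6.52 with vehicle, at 6.36 and 6.21 in untreated db/db and at 6.82 and 6.91 in WT wounds (estrogen against vehicle, log2 −5.90, SE 0.54, limma adjusted p = 0.00170). Krt16 averaged 3.85 with estrogen and 7.56 with vehicle, without overlap (log2 −3.70, SE 0.38, limma adjusted p = 0.00288). The mean level of the 4 keratins ranged from 2.31 to 2.49 with estrogen, 5.66 to 6.91 with vehicle, 5.33 to 5.37 in db/db and 5.82 to 6.01 in WT wounds. Their part in the low Rptn and Cnfn of these wounds was not tested. None of the 4 was called on labelled day 14 between estrogen and vehicle (median −0.27), and the mean level was 5.81 to 6.76 with estrogen and 6.52 to 6.65 with vehicle.

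Basal keratinocyte markers (8 genes such as Krt5, Krt14 and Trp63) were called lower in db/db than in WT wounds in 3 of 8 cases on labelled day 7 (median −1.07), with mean levels of 2.44 to 3.07 against 3.71 to 3.94. Under estrogen 5 of 8 were called higher than in db/db wounds (median 1.11, mean level 3.99 to 4.20), and with vehicle 3 of 8 (median 0.98, mean level 3.44 to 4.02). Against vehicle 1 of 8 was called higher under estrogen (median 0.26), where Rptn and Cnfn were called lower. Hair follicle markers (10 genes, Gata3 among them) were called lower in db/db wounds in 6 of 9 cases tested (median −3.82), and higher under estrogen than in db/db wounds in 10 of 10 (median 3.49), with mean levels of −5.24 to −4.69 in db/db, −0.88 to −0.43 with estrogen, −4.21 to −1.94 with vehicle and −2.55 to −0.58 in WT wounds. Neutrophil markers were called higher in db/db than in WT wounds in 4 of 6 cases (median 4.30) and lower under estrogen than in db/db wounds in 6 of 6 (median −6.29), with mean levels of 3.44 to 4.27 in db/db, −2.79 to −2.71 with estrogen, −0.14 to 0.94 with vehicle and −0.86 to −0.42 in WT wounds. Over all probes of labelled day 7, 8.42% were called lower and 14.1% in either direction in db/db against WT wounds. Against db/db wounds, 5.22% were called higher and 4.71% lower under estrogen, and 2.52% higher with vehicle. All 8 basal and all 4 wound-edge markers were well above background on all 16 arrays. The same held for 6 of 10 hair follicle and 5 of 6 neutrophil markers. The part of each of these in the differences of the granular genes was not tested.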

How the data were processed

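The authors scanned Agilent mouse arrays with Feature Extraction 11.0.1.1 and deposited 1 file of spot intensity per array, already background-subtracted, and a table with the ratio of the intensity to the array's 75th percentile. The table held the same values to within rounding and served as an alternative. Spots marked as outliers were left out, the spots of a probe were averaged, and log2 of the intensity minus log2 of the array's 75th percentile over non-control probes was taken. Probes were named by accession through RefSeq (GRCm38.p6), which named 27427 of 39429. A gene with several probes was read through the brightest.

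limma 3.58.1 in R 4.3.3 fitted 1 coefficient per group to all 16 arrays (8 residual degrees of freedom), since 2 arrays per group cannot reach p under 0.333 in an exact permutation test. A probe was tested where both arrays of 1 compared group were well above background. Text names every member, and up to 3 called genes with the largest change per list in db/db against WT and estrogen against db/db. Members and lists were chosen with earlier results of these data known. Other settings changed the background correction (normexp), normalization (quantile), filter, floor, samples fitted, slide or replicate block, adjustment and probe, or left out 1 array. Of 25 fold changes between db/db and WT that the study prints, 25 lay within 1% of the arrays labelled with the other day and 0 of those with the same day. The number of arrays limits the precision. One gene that the rule names is not reported here.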

Additional observations from a re-analysis of the deposited data

Results flagged for a closer look

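Differences between the labelled days passed the thresholds for 2 genes. For Rptn, the estrogen against vehicle difference was −4.87 on labelled day 7 and −0.52 on labelled day 14, a contrast of log2 −4.34 (SE 1.24, limma adjusted p = 0.255), and this call was kept without each array in turn, between −5.41 and −3.28. On labelled day 7 both estrogen arrays lay below both vehicle arrays, and on labelled day 14 they overlapped. For Cnfn, the estrogen against db/db difference was −0.64 on labelled day 7 and 0.96 on labelled day 14, a contrast of log2 −1.60 (SE 0.71, limma adjusted p = 0.492), and this call was lost without 5 of the 8 arrays in turn.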

How the results depend on the processing

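Of 23 calls of single genes, none changed direction under any setting tried. Under the 11 settings other than the adjustment 18 were kept, and without each array in turn 8 were kept: Casp14 and Ivl (db/db vs WT), Rptn and Cnfn (estrogen vs vehicle), Rptn, Cnfn and Casp14 (estrogen vs WT) and the day difference of Rptn. After Benjamini-Hochberg adjustment the number of genes called on labelled day 7 was 3 for db/db vs WT, 0 for estrogen vs db/db, 0 for vehicle vs db/db, 1 for estrogen vs vehicle, 2 for estrogen vs WT and 0 for vehicle vs WT. On labelled day 14 it was 0 for db/db vs WT and 0 for vehicle vs db/db, and it was 0 for the day differences of estrogen vs db/db and of estrogen vs vehicle. With the slide as a random block, 1 gene was called for vehicle vs WT on labelled day 7, 0 for db/db vs WT on labelled day 14 and 0 for the day difference of estrogen vs db/db. With the slide as a fixed block, labelled day 14 gave 2 for db/db vs WT, 1 for estrogen vs db/db, 2 for vehicle vs db/db and 1 for estrogen vs WT, and the day difference of estrogen vs db/db gave 2. The latter gave 0 with quantile normalization, and the day difference of estrogen vs vehicle gave 2 with normexp and 2 with a floor on dim signals. The causes were not tested. With the replicate number as a block, the day difference of estrogen vs db/db gave 0 calls and Hrnr in db/db vs WT was no longer called, and no other count moved by more than 1.5 times, although same-numbered arrays did not deviate together (r from −0.37 to 0.33 over 29735 probes).

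Leaving out 1 array at a time gave, on labelled day 7, 2 to 6 genes for db/db vs WT, 0 to 2 for estrogen vs db/db, 0 to 4 for vehicle vs db/db, 2 to 3 for estrogen vs vehicle, 3 to 4 for estrogen vs WT and 0 to 2 for vehicle vs WT. On labelled day 14 it gave 0 to 2 for db/db vs WT, 0 to 2 for estrogen vs db/db, 0 to 2 for vehicle vs db/db, 0 to 1 for estrogen vs vehicle, 0 to 1 for estrogen vs WT and 0 to 2 for vehicle vs WT. The day differences gave 0 to 4 for db/db vs WT, with 4 without WT replicate 1 of labelled day 14, 0 to 2 for estrogen vs db/db, 0 to 0 for vehicle vs db/db and 1 to 2 for estrogen vs vehicle. A lone array left in a group was assumed to vary like the other groups.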

Other observations

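Markers of other tissues in the wounds were followed as values only. Over all probes of labelled day 7, 14.1% were called in either direction in db/db against WT wounds. Under estrogen against db/db wounds, 5.22% were called higher and 4.71% lower. In db/db against WT wounds of labelled day 7, 4 of 6 macrophage and leukocyte genes were called higher and 1 lower (median log2 1.13), 1 of 6 fibroblast genes higher (−0.40), 1 of 5 adipocyte genes higher and 1 lower (0.11), 2 of 5 sebaceous genes tested lower (−0.89), and none of 5 skeletal muscle genes (−0.45) or of 4 endothelial genes (−0.38). Under estrogen against db/db wounds of that day, 2 of 5 sebaceous genes were called higher (0.92), 1 of 5 adipocyte genes higher (1.02), 1 of 6 macrophage and leukocyte genes higher and 2 lower (−0.34), and none of the fibroblast (0.17), skeletal muscle (1.03) and endothelial genes (0.00). On labelled day 14 the median of the 4 endothelial genes was 0.31 in db/db against WT and −0.33 in estrogen against db/db wounds, and none was called.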
